A study of Mus musculus with 8 samples.

Results

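Regulatory T (Treg) cells of the mouse line T143 were compared with wild-type (WT) Treg cells, in 3 libraries of each group out of the 8 libraries of the series. T143 was made by nuclear transfer, in which the nucleus of a mature cell directs the development of a whole animal. The series describes the line as a Treg model that bears signs of selection on an agonist ligand, and asks whether Treg cells comprise distinct subsets. All 6 libraries came from untreated mice with the strain label NOD-Foxp3GFP-Rag1-/-, which the WT libraries carry too, and from cells sorted as CD4-positive and Foxp3-positive. Rag1 encodes a recombinase that assembles receptor genes, and a mouse without it makes T cells only where a receptor has already been rearranged. The WT libraries hold T cells too, so the label can be true of the WT mice only if they carried such a receptor. Whether they did is not known here, so Rag1 genotype may differ between the groups and cannot be told apart from line. No age of the mice is stated in the labels. The labels do not tie replicates to separate animals. The p-values thus reflect only how far these libraries spread, and part of that spread may be technical.

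Treg cells hold other T cells in check, and Foxp3 is the transcription factor that defines them. They carry the high-affinity interleukin-2 (IL-2) receptor, whose signal passes through JAK3 and STAT5 and switches on feedback inhibitors such as Cish and Socs2. They also hold latent TGF-beta on their surface with the anchor protein GARP (gene Lrrc32), and an integrin containing the beta-8 chain (Itgb8) releases the active cytokine. Signals from the T cell receptor (TCR) and its costimulators reach the nucleus through NFAT, AP-1 and NF-kB, and the NF-kB subunit c-Rel (gene Rel) is needed for Treg development in the thymus.

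Recovered depth ran from 7.83 to 12.6 M reads in the T143 libraries and from 14.64 to 22.64 M in WT. All values below are normalised read counts, in which every library sums to 15.59 M, and 3 reads, the limit that a count of 0 allows, equal a value between 2.07 and 5.97. For 2 libraries the source name conflicts with the title, which was followed here: T143 replicate 1 is sourced to a T138 mouse, and WT replicate 1 to a T143 mouse. Many counts of passing genes are also given without both of these libraries, which are called the libraries with conflicting source names. Transcripts of Cd4 and Foxp3, the markers of the sort, and of Cd3e were present in all 6 libraries. Foxp3 was far lower in T143, at 3920.5, 6299 and 8694 against 29773, 36362 and 35359.6 in WT. Cd3e was at 8733, 6959 and 5213 in T143 and at 7031, 10049 and 12487 in WT, and did not pass (log2 change -0.49 ± 0.23, limma adjusted p = 0.147). Cd4 was at 15941, 12858 and 10922 in T143 replicates 1, 2 and 3 and at 14769.7, 16651 and 17655 in WT, and its difference missed the threshold (log2 change -0.32 ± 0.15, limma adjusted p = 0.163). Rag1 was listed at 25.9, 40.7 and 32.2 in T143 and at 0, 0 and 18.2 in WT. Mature T cells normally do not transcribe Rag1, so these low values do not check the knockout label. The T143 libraries carried Xist, made from the inactive X chromosome of females, at 19143, 24992 and 24143, and the WT libraries carried Y-linked transcripts such as Ddx3y at 2923, 3018 and 2094. Xist was at 35.1, 129.9 and 0 in WT and Ddx3y at 0, 1.27 and 0 in T143, so sex and line cannot be told apart in any comparison below. The 2 libraries of T138, the other line, had Xist at 2.95 and 0 and Ddx3y at 3634 and 3175. On the log2 scale, T143 replicate 1 correlated at 0.968 and 0.953 with the other T143 libraries and at 0.911 and 0.904 with T138. WT replicate 1 correlated at 0.93 and 0.948 with the other WT libraries and at 0.846 to 0.901 with T143. By these values both libraries with conflicting source names lay with the group in their title.

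The T143 libraries also held transcripts of blood cells that are not T cells. Markers of neutrophils and their precursors summed to 0.65, 1.12 and 4.02% of the signal in T143 replicates 1, 2 and 3, against 0.000711 to 0.0061% in WT. Monocyte markers summed to 0.069, 0.223 and 0.275% in T143 and to 0.00396 to 0.0047% in WT. Markers of dendritic cells and MHC class II made up 0.0558, 0.199 and 0.139% in T143 and 0.0124 to 0.0178% in WT. Erythroid markers stood at 0.0282, 0.146 and 0.0799% against 0.00258 to 0.00931%. The ranges of T143 and WT did not overlap in any of these 4 lists, and the neutrophil share was highest in T143 replicate 3. Markers of B and plasma cells went the other way, at 0.00976, 0.0111 and 0.0167% in T143 against 0.0178 to 0.0265% in WT. Of these markers 3 of 12 passed as lower, against 12.1% of all genes. The part of these cells in the differences below was not tested.

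**Figure D1:**
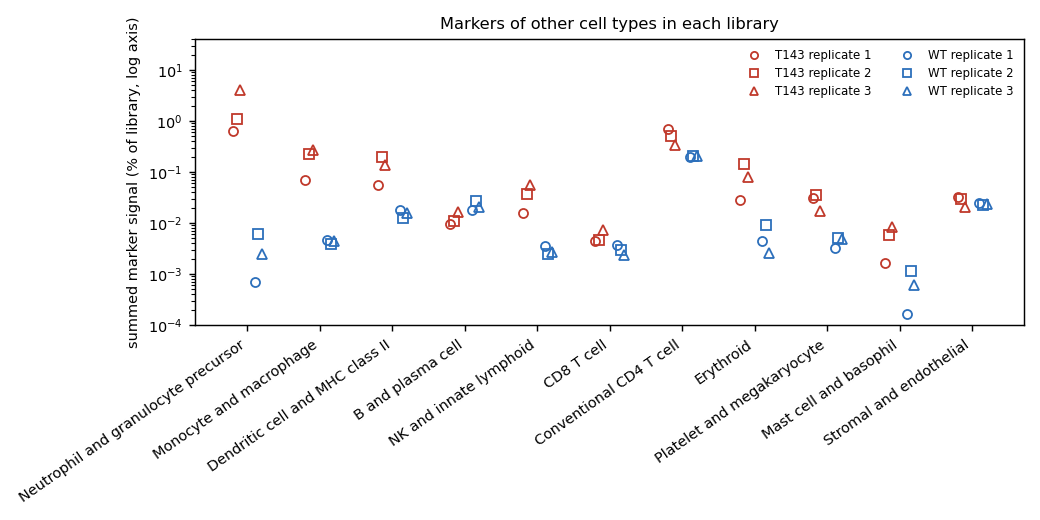
Summed signal of marker genes of 11 other cell types as a percentage of each library, on a log axis; each point is 1 library, with T143 in red and WT in blue. Neutrophil markers reach 0.65 to 4.02% in T143 and at most 0.0061% in WT.

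Of 15547 genes tested, 3698 (23.8%) passed a limma adjusted p under 0.05 between T143 and WT. Of all genes tested, 11.7% passed as higher in T143 (1818 genes) and 12.1% as lower (1880 genes). Lack of overlap between the T143 and WT libraries was common, with 20% of all genes tested higher without overlap and 20.7% lower. The median log2 change over all genes was 0.05, and median centring or quantile normalization moved it to -0.08. Median centring changed the split to 1403 higher and 2157 lower genes. Without both libraries with conflicting source names, 1584 genes passed as higher and 1234 as lower. Leaving out T143 replicate 2 gave 1042 higher genes and 2426 passing in all. The largest changes were mostly rises: 727 genes were more than 8-fold higher in T143 and 128 more than 8-fold lower. Of those 727 genes, 67.3% had their highest value in T143 replicate 3 and 2.3% in T143 replicate 1, against 34.6% and 32.1% of all genes tested. Of the 770 passing genes that rose from a WT mean above the median WT mean of 280.2, 47.4% were highest in T143 replicate 1 and 37.1% in replicate 3.

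The largest falls from a WT level above that median were found for genes of varied known function. Jchain, the joining chain of secreted IgM and IgA, was at 0, 2.55 and 1.24 in T143 and at 123, 1987 and 955 in WT, a log2 change of -8.27 ± 1.08 (limma adjusted p = 0.000616). The T143 values lie under the floor of 3 reads, and the highest WT library was 16.1-fold the lowest. Jchain is one of the B and plasma cell markers, whose summed signal was also lower in T143. Npas4, a transcription factor gene induced by activity in neurons, stood at 5.97, 1.27 and 1.24 against 433, 1304 and 985 (-7.97 ± 0.67). Rgs9, a brake on G protein signals, was tight in both groups, at 17.9, 16.5 and 17.3 in T143 and 639.9, 833 and 583 in WT (-5.22 ± 0.31, limma adjusted p = 7.57e-06). Capn3, a calcium-dependent protease, fell from 1510.5, 1252 and 1273 to 27.9, 50.9 and 55.7 (-4.93 ± 0.34). Dnah7a, a dynein heavy chain, and Slc7a10, an amino acid transporter, fell by 7.44 and 7.12 on the log2 scale. Cybrd1, a ferric reductase, changed by -5.06 ± 1.12 and Angptl2, a secreted angiopoietin-like protein, by -4.81 ± 0.71. Pla2g4f, a phospholipase, changed by -4.15 ± 0.34 and Ptpn5, a tyrosine phosphatase, by -4.07 ± 0.39. Lrrc32 and Spry1 complete the 12 largest falls and are described with their pathways. No library of one group overlapped the other for any of these 12 genes, which the naming rule required.

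**Figure D2:**
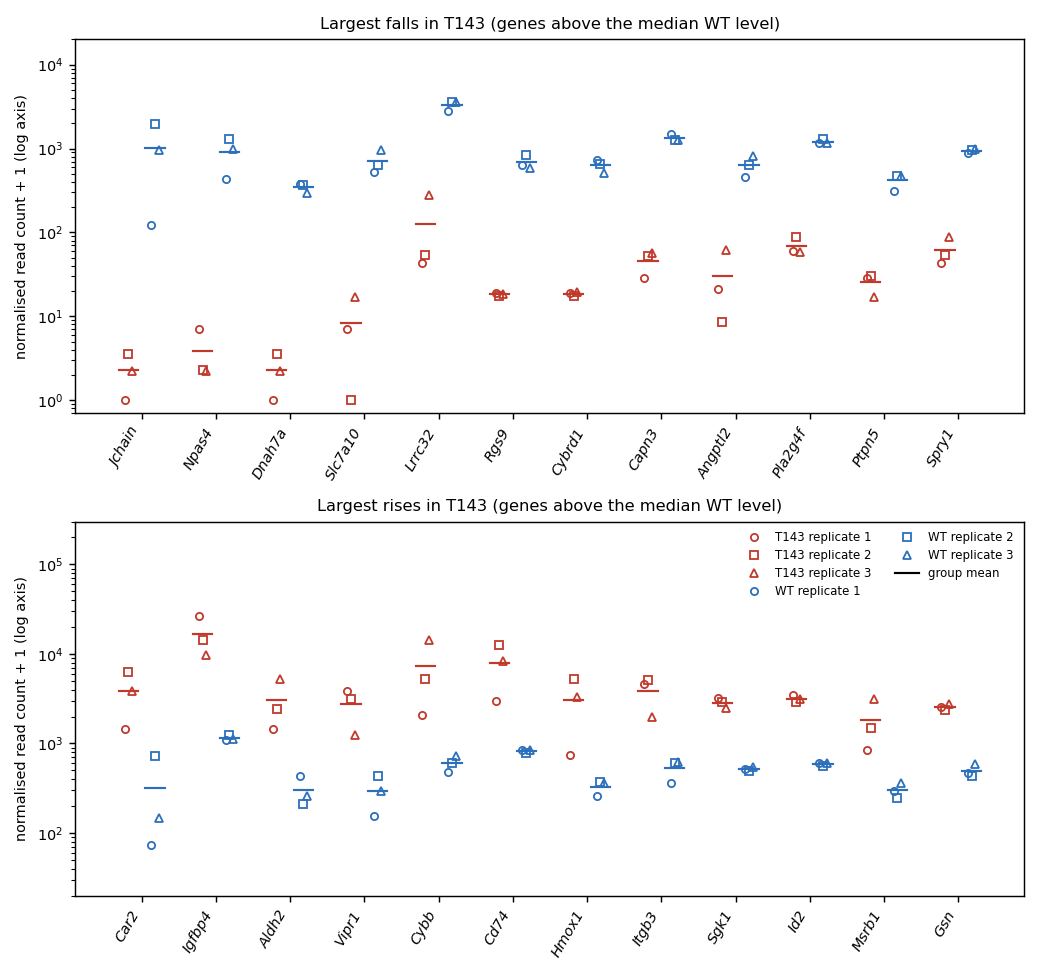
Normalised read count plus 1 on a log axis for the 12 largest falls (top) and 12 largest rises (bottom) among genes above the median WT level; each point is 1 library, red for T143 and blue for WT, and the short bars are group means. Rgs9 and Capn3 are tight in both groups and Jchain varies between the WT libraries, while Cybb, Aldh2 and Msrb1 are highest in T143 replicate 3 and Igfbp4 and Vipr1 are highest in replicate 1.

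The largest rises among genes expressed in WT fell into those close together in the 3 T143 libraries and those spread across them. Id2, an inhibitor of E-protein transcription factors, was at 3455, 2910.5 and 3129 in T143 and at 597, 552 and 604 in WT (log2 change 2.43 ± 0.14, limma adjusted p = 7.14e-06). Sgk1, a kinase induced by salt and growth factors, was at 3192, 2895 and 2507 against 523, 489 and 541 (2.46 ± 0.15, limma adjusted p = 9.95e-06). Gsn, the actin-severing protein gelsolin, was at 2585, 2394 and 2765 against 461, 435 and 594 (2.39 ± 0.15). The highest T143 library was 1.19-, 1.27- and 1.16-fold the lowest for Id2, Sgk1 and Gsn. The neutrophil marker share differed 6.18-fold across the same libraries, and the part of neutrophils or other cells in these rises was not tested. Igfbp4, a binding protein of insulin-like growth factors, was at 26842, 14163 and 9688 in T143 and 1092, 1255 and 1120.2 in WT (3.74 ± 0.30). Vipr1, a receptor for vasoactive intestinal peptide, was at 3839, 3132 and 1256 against 154, 431 and 293 (3.20 ± 0.45). Both were lowest in T143 replicate 3, the library with the most neutrophil signal. Cybb, the catalytic chain of the phagocyte oxidase, went the other way, with 2094, 5269 and 14425 in T143 and 477, 606 and 727 in WT (3.19 ± 0.57). Aldh2, an aldehyde dehydrogenase, and Msrb1, a methionine sulfoxide reductase, were likewise highest in replicate 3. Car2, a carbonic anhydrase, Cd74, the MHC class II chaperone, and Hmox1, a haem-degrading enzyme, were highest in T143 replicate 2, as were the erythroid and MHC class II marker shares. Car2 is itself counted in the erythroid share and Cd74 in the MHC class II share. The call for Car2 was lost with edgeR on recovered reads. Itgb3, the beta-3 integrin chain, rose from 363, 604 and 612 to 4603, 5090.4 and 1981 (2.81 ± 0.35). It is itself counted in the platelet marker share, which was 0.0312, 0.0352 and 0.0172% in T143 and 0.00322 to 0.00501% in WT.

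The Treg identity genes were the list with the most falls. Of its 24 members, all tested, 20 passed as lower in T143, against 12.1% of all genes, and the median log2 change was -2.15 against 0.05 over all genes. Without both libraries with conflicting source names 17 passed, and leaving out single libraries gave 19 to 22. Foxp3 was at 3920.5, 6299 and 8694 in T143 and at 29773, 36362 and 35359.6 in WT, a log2 change of -2.49 ± 0.24 (limma adjusted p = 0.000117). The lowest WT library was 3.42-fold the highest T143 library. In bulk RNA, fewer Foxp3-expressing cells among those sorted and less Foxp3 RNA in each cell cannot be told apart. Ikzf4, which encodes the Foxp3 partner Eos, was at 314, 312 and 245 against 2526, 3882 and 3729 (-3.52 ± 0.19, limma adjusted p = 5.49e-06). Ikzf2, which encodes Helios, was at 3073, 4114 and 5014 against 16079.7, 26423 and 20084 (-2.36 ± 0.21). The surface proteins fell to different degrees. Nt5e, the ecto-enzyme CD73 that makes adenosine, was at 310.4, 284 and 490.1 in T143 and 3448, 4263 and 4302 in WT (-3.50 ± 0.20). Gpr83, a G protein-coupled receptor of Treg cells, was at 1150.3, 956 and 905 against 6906, 5281 and 5693 (-2.57 ± 0.20). Nrp1, the semaphorin receptor neuropilin-1, changed by -2.72 ± 0.22 and Izumo1r, folate receptor 4, by -1.87 ± 0.23 on the log2 scale. Tigit and Icos were high only in T143 replicate 3 among the T143 libraries, at 306, 229 and 1359 and 1339, 988 and 4385, and did not pass (limma adjusted p = 0.157 and 0.165).

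**Figure D3:**
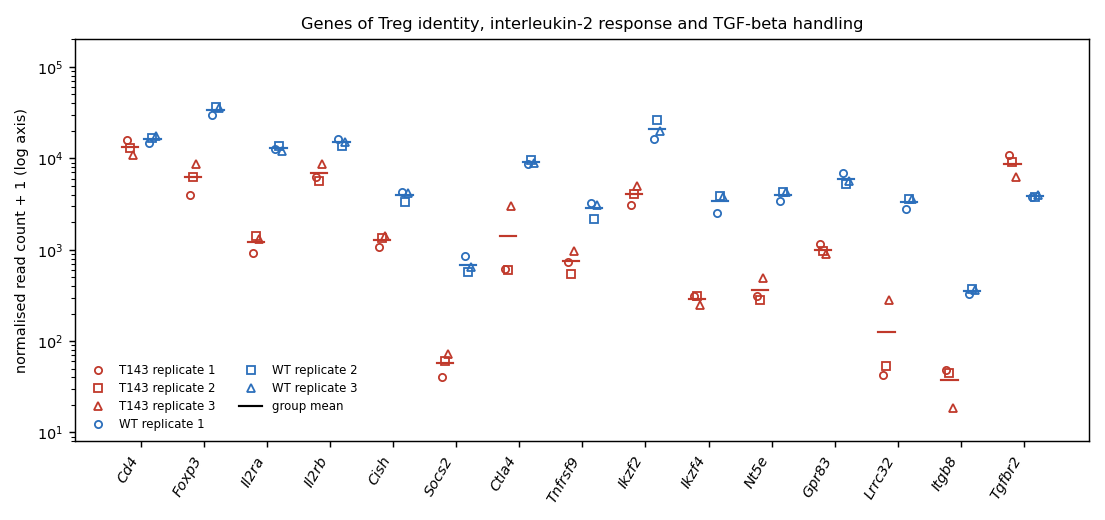
Normalised read count plus 1 on a log axis for Cd4 and 14 genes of Treg identity, the IL-2 response and TGF-beta handling; each point is 1 library, red for T143 and blue for WT, and the short bars are group means. Cd4 overlaps between groups, Tgfbr2 is higher in every T143 library than in any WT library, and the remaining genes lie below WT in every T143 library.

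Signals for IL-2 were represented by 12 genes, of which 7 passed as lower in T143 (12.1% of all genes did), also without both libraries with conflicting source names. The 3 receptor chains differed. The alpha chain Il2ra was at 909, 1414 and 1307 in T143 and 12706, 13734 and 12116 in WT (-3.43 ± 0.17, limma adjusted p = 3.18e-06), with the groups far apart. The beta chain Il2rb was at 6219, 5714 and 8645 against 16452, 13486 and 14966 (-1.14 ± 0.17). The shared gamma chain Il2rg, at 13085, 10467 and 7225 against 11095, 11624 and 13513, overlapped between groups and did not pass (limma adjusted p = 0.351). Below the receptor, Jak3 fell by 0.71 and Stat5a by 0.67 on the log2 scale. Of the genes for feedback inhibitors, Socs2 was at 39.8, 59.8 and 70.5 in T143 and 847, 564 and 648 in WT (-3.59 ± 0.27), and Cish at 1067, 1339 and 1418 against 4232, 3336 and 4199 (-1.62 ± 0.15, limma adjusted p = 0.000115). Another, Socs3, did not pass. The STAT motif TTCNNNGAA, which is its own reverse complement, was looked for from 250 bases before to 50 bases after the RefSeq starts of these genes. It was found for 2 of the 9 members with a window, and in 9.55% of all genes with one. The members were listed for their part in this pathway, so the share does not bear on T143 against WT.

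Receptors for other cytokines moved in both directions. Of 24 tested, 4 passed as higher and 8 as lower in T143, against 11.7% and 12.1% of all genes. The higher count was 2 without T143 replicate 2 or without WT replicate 3. Il7r, the IL-7 receptor chain that Treg cells usually carry at low level, was at 3970.2, 4328 and 5244 in T143 and at 2693, 3280.2 and 2771 in WT (0.63 ± 0.14, limma adjusted p = 0.0101). Il18r1, a receptor chain for IL-18, was at 1934, 1681 and 1499 against 3883, 7658 and 6283 (-1.75 ± 0.22). Il21r was at 3855, 3721 and 3993 against 7892, 7065 and 7570.3 (-0.96 ± 0.11), with both groups narrow. Il12rb1, a chain shared by the IL-12 and IL-23 receptors, fell by 1.21 on the log2 scale.

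Of 21 genes of the TGF-beta list, 4 passed as higher and 8 as lower, against 11.7% and 12.1% of all genes. The counts were 2 and 5 without both libraries with conflicting source names, and the higher count was also 2 without T143 replicate 1, T143 replicate 2 or WT replicate 3. Lrrc32 was at 41.8, 52.2 and 279.7 in T143 and 2812, 3586 and 3578 in WT (-5.26 ± 0.59, limma adjusted p = 0.000455). Its value in T143 replicate 3 was 5.36-fold the next highest, and the lowest WT library was 10.1-fold that value. Itgb8 was at 47.8, 43.3 and 17.3 against 326, 371 and 358 (-3.37 ± 0.43). The 2 signalling receptor chains went in opposite directions. Tgfbr2 was at 10932, 9027 and 6176 against 3751, 3767 and 3984 (1.15 ± 0.19, limma adjusted p = 0.0023), with every T143 library above every WT library, as for 20% of all genes tested. Its partner chain Tgfbr1 was lower, at 1600.0, 1724 and 1756 against 2568, 3363 and 2235 (-0.66 ± 0.16, limma adjusted p = 0.0124), a call lost without both libraries with conflicting source names. Skil and Tgif1, which repress SMAD-driven transcription, fell by 1.44 and 1.58 on the log2 scale. Smad3, a transducer of the receptor signal, was at 1988, 1864 and 2003 against 1944, 2259 and 2310.4 and did not pass (limma adjusted p = 0.438).

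Of 24 inhibitory and costimulatory receptor genes tested, 11 passed as lower in T143, against 12.1% of all genes. The count was 12 without both libraries with conflicting source names and 7 without WT replicate 3. Ctla4, the inhibitory receptor that removes CD80 and CD86 from other cells, was at 619, 601 and 2978 in T143 and at 8759.6, 9632 and 8987 in WT (-3.14 ± 0.51, limma adjusted p = 0.00256). Its value in T143 replicate 3 was 4.81-fold the next highest T143 library. Tnfrsf4 (OX40) was at 1057, 1035 and 1859 against 5892, 3162 and 5391 (-1.87 ± 0.27), and Tnfrsf9 (4-1BB) at 736, 547 and 964 against 3227, 2183 and 3102 (-1.94 ± 0.22). Cd200, a ligand that restrains myeloid cells, was steady within each group, at 515, 464 and 519.8 against 1743, 2014 and 2184 (-1.98 ± 0.15, limma adjusted p = 3.32e-05). Cd28, the main costimulator, was at 7254, 6028 and 4889 against 6231, 8555 and 6721 and did not pass (limma adjusted p = 0.33). Tnfrsf18 (GITR) overlapped between the groups, at 2398, 1742 and 1845 against 5124, 1931 and 3448 (limma adjusted p = 0.103).

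The 14 genes for suppressive products were split, with 4 passing as higher in T143 and 3 as lower, against 11.7% and 12.1% of all genes. The higher count was 2 without WT replicate 2. Fgl2, a secreted fibrinogen-like suppressor, was at 663, 1425 and 1330.5 in T143 and at 136, 128 and 268 in WT (2.68 ± 0.34, limma adjusted p = 0.000578). Prf1, the pore-forming protein perforin, was at 436, 487 and 409.7 against 123, 85.2 and 119 (2.03 ± 0.30). Prf1 is also one of the NK cell markers, whose summed signal was higher in T143, and the part of NK cells in its rise was not tested. Il10 stood at 1.99, 14 and 47 in T143 and 68.2, 119 and 63.8 in WT, without overlap, and missed the threshold (-2.66 ± 0.95, limma adjusted p = 0.0682). Over all genes tested, 20.7% were lower without overlap. Ptger4, a receptor for prostaglandin E2, fell by 1.12 on the log2 scale.

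Genes that the TCR switches on were mostly lower in T143. Of 25 members, 14 passed as lower and 3 as higher, against 12.1% and 11.7% of all genes, with a median log2 change of -0.72. The lower count was 11 without both libraries with conflicting source names and 9 without WT replicate 3. Nr4a1, an immediate early gene whose level follows TCR signal strength, was at 1552, 1770.2 and 1689 in T143 and at 4144, 3029.9 and 3288 in WT (-1.05 ± 0.15, limma adjusted p = 0.00106). Egr1, another immediate early gene, was at 1972, 2592 and 2283 against 2023, 1877 and 2289.9 and did not pass (0.14 ± 0.14, limma adjusted p = 0.51). Myc, a growth regulator, was at 1286, 1780.4 and 1498 against 2643, 2538 and 3008 (-0.85 ± 0.15). Spry1, an inhibitor of MAP kinase signals, was at 41.8, 52.2 and 86.6 against 888, 966 and 979 (-4.01 ± 0.55). Nab1, a corepressor of EGR proteins, was among those higher, at 2197, 1827 and 2186 against 1036, 985 and 1169.6 (0.96 ± 0.14). Of 16 AP-1 genes 4 passed as higher and 1 as lower, and the higher count was 2 without T143 replicate 2, T143 replicate 3 or WT replicate 3. The gene that fell was Fosb (by 2.15 on the log2 scale). Fosl2, at 429.9, 641 and 1297 against 73.7, 121 and 112, rose by 2.81 and was highest in T143 replicate 3.

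Molecules that restrain the TCR signal fell in 8 of 21 cases and rose in 2, against 12.1% and 11.7% of all genes. The lower count was 5 without WT replicate 3. Ptpn22, a phosphatase acting on proximal kinases, was at 2042, 1889 and 2448 in T143 and at 3571, 3996 and 3812 in WT (-0.84 ± 0.13, limma adjusted p = 0.00163). Dgkz, a kinase that removes diacylglycerol, was at 10237, 9106 and 7881 against 14972, 16169 and 16077 (-0.80 ± 0.13). Themis, which sets TCR signals in thymocytes, was at 4004, 3180.3 and 2009 against 959, 1317 and 804 (1.55 ± 0.26, limma adjusted p = 0.00201) and had no overlap. Over all genes tested, 20% were higher without overlap. Regulators of mRNA decay that limit cytokine transcripts were lower for 5 of 16 members, and for 3 without WT replicate 3 or without both libraries with conflicting source names. Zfp36l1 was at 3079, 3264 and 2789.7 against 6281, 11103 and 10662 (-1.58 ± 0.20), and Zc3h12a (Regnase-1) at 611, 562 and 734 against 1240.5, 1150.2 and 1278 (-0.95 ± 0.15).

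Of 24 NF-kB subunits and target genes, 13 passed as lower, against 12.1% of all genes. The count was 11 without both libraries with conflicting source names, and 11 to 15 when single libraries were left out. The median log2 change was -0.58. Promoters are shown for 3 of the members that fell, because each holds an NF-kB motif near its start, written as GGG, any 3 bases and TTCC. The sequences are the 250 bases before a RefSeq transcript start on the gene's strand in GRCm38.p6, with matches on either strand in capitals. Where a gene has more than 1 start, the start with the most matches in its 300-base window was shown. Tnfaip3, at chr10:19015411-19015660 on the minus strand, encodes the deubiquitinase A20 that ends NF-kB signals. Tnip1, at chr11:54962941-54963190 on the minus strand, encodes its binding partner. Nfkb2, at chr19:46304487-46304736 on the plus strand, encodes the p100 subunit. The Nfkb2 start shown lies inside the gene, which spans 46300994 to 46312400.
Tnfaip3: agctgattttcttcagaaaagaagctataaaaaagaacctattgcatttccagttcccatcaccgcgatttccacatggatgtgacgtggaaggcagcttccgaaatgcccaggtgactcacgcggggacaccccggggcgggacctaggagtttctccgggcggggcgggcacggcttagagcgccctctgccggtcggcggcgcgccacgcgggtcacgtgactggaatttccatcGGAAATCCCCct
Tnip1: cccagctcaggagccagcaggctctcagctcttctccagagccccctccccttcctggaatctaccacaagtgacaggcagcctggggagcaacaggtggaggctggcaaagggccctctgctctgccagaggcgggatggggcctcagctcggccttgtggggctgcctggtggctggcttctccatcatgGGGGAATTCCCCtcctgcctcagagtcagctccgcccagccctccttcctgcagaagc
Nfkb2: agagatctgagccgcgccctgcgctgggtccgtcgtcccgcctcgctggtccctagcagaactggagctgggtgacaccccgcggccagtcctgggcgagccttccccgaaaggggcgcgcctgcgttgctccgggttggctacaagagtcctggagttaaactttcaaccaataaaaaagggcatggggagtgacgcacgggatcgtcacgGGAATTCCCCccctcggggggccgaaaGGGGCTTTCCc
The match in Tnfaip3 begins 12 bases before the start, and a second match of this window lies after the start, outside the part shown. The 2 matches in Tnip1 begin 58 and 56 bases before the start and overlap, and those in Nfkb2 begin 38 and 11 bases before it. The motif was searched on both strands of the 300 bases from 250 before to 50 after each start. It was found for 9 of the 19 list members with a window, and in 6.31% of all genes with one (5.56% of 32851 windows). The list was written as NF-kB subunits and targets, so this share does not bear on T143 against WT. Of those 9 members, Nfkb2, Rel, Nfkbid, Nfkbie, Tnfaip3 and Tnip1 passed as lower, and Nfkbia, Traf2 and Ltb did not pass. Of all 24 members, with or without the motif, 13 passed as lower. A match describes the letters and does not show that a factor binds there.

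Values per gene, which do not tell starts apart, were close within each group for these 3 genes. Tnfaip3 was at 1777, 1868 and 1948 in T143 and at 4745, 3902 and 3675 in WT (log2 change -1.13 ± 0.13, limma adjusted p = 0.000357). Tnip1 was at 3805, 3295 and 2953 against 6388, 6397 and 7231 (limma adjusted p = 0.000657). Nfkb2 was at 1489, 1423 and 1689 against 2165, 2214 and 2538 (-0.59 ± 0.13, limma adjusted p = 0.00906). No T143 library reached the lowest WT library for any of the 3, as for 20.7% of all genes tested. Rel, at 494, 650.3 and 627 against 935, 1238 and 1053, fell by 0.86 on the log2 scale. Traf1, an adaptor of TNF receptors, was at 2191, 1815 and 1887 against 4239, 5315 and 5837 (-1.38 ± 0.15). Cd83, a surface protein of activated lymphocytes, showed the largest fall of those named, from 2313, 1848 and 2706 to 153, 261 and 278 (-3.33 ± 0.25). Nfkbia, the inhibitor IkB-alpha, was at 3477, 2956 and 3832 against 5446, 3641 and 4639.8 and did not pass (limma adjusted p = 0.099). The single member that rose was the chemokine gene Ccl5, at 394, 265 and 766 against 82.7, 60.7 and 156 (2.21 ± 0.44).

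Genes of resting and recirculating T cells rose for 9 of 23 members and fell for 3, against 11.7% and 12.1% of all genes, with a median log2 change of 0.56. The higher count was again 9 without both libraries with conflicting source names, and 14 with DESeq2. Tcf7, the transcription factor TCF-1 of resting and stem-like T cells, was at 31927, 26669 and 18649 in T143 and at 11398, 13167 and 13316 in WT (1.00 ± 0.19, limma adjusted p = 0.00422). Satb1, a chromatin organiser, was at 16036, 13833 and 9229 against 6239, 6875 and 5099.6 (1.08 ± 0.20). Nsg2 was at 4273, 2348 and 1708 against 771, 585 and 676 (1.94 ± 0.30). Dapl1 was at 3473, 2037 and 741 against 11.7, 24.5 and 16 (6.62 ± 0.59, limma adjusted p = 7.26e-05). In all 4 genes the value was lowest in T143 replicate 3 among the T143 libraries and still above every WT library. Over all genes tested, 20% were higher without overlap. Lef1, the partner of TCF-1, was at 10126, 8159 and 3834 against 3487, 3749 and 4053, overlapped, and missed the threshold (limma adjusted p = 0.0544). Ccr7, a lymph node homing receptor, was at 13696, 9909 and 4451 against 5156, 2786 and 4048 (limma adjusted p = 0.0575). Gata3, a transcription factor that supports Treg cells in tissues, was among those lower, at 1216, 1308 and 1453 against 2187, 2330.2 and 2634 (-0.85 ± 0.13). Markers that separate conventional CD4 T cells from Treg cells share 7 of their 10 genes with this list, and 5 of the 10 passed as higher. Their summed signal was 0.694, 0.517 and 0.345% in T143 replicates 1, 2 and 3 and 0.201 to 0.21% in WT. Whether conventional CD4 T cells contributed to the higher resting genes and lower Treg genes was not tested.

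The effector Treg list was balanced, with 9 of 28 members higher and 9 lower, against 11.7% and 12.1% of all genes. The higher count was 5 after the trend with transcript length was removed. Klrg1, a receptor of differentiated effector cells, was at 977, 1065 and 1895 in T143 and at 313, 406 and 566 in WT (1.59 ± 0.27, limma adjusted p = 0.00219). Ccr8, a receptor of tissue Treg cells, was at 23.9, 33.1 and 132 against 279.6, 332 and 503 (-2.90 ± 0.60), and Itgae, the alpha-E integrin chain, at 434, 335 and 848 against 1451, 1314 and 2009 (-1.65 ± 0.31). Chemokine receptors of inflamed tissue were higher for 6 of 15 and lower for 3. Ccr2 was at 1548, 3318 and 5712 against 534, 725 and 795 and Cx3cr1 at 87.6, 262 and 307 against 4.82, 0 and 8.36, and both are also monocyte genes. Ccr6, a receptor of mucosal T cells, was at 61.7, 94.2 and 220.3 against 489.7, 952 and 831 (-2.73 ± 0.45). Among integrins, Itgb1 was at 6299, 5597 and 5281 against 9746, 14024 and 14694 (-1.14 ± 0.17).

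Cytotoxic granule and natural killer (NK) receptor genes rose for 9 of 21 members, against 11.7% of all genes, with a median log2 change of 2.03. When single libraries were left out, 9 to 10 passed. Gzma, a granzyme, was at 197, 475 and 210.4 in T143 and at 13.1, 2.13 and 9.88 in WT (5.11 ± 0.65, limma adjusted p = 0.000536). Nkg7, a granule membrane protein, was at 782, 606 and 1094 against 329, 145 and 353 (1.64 ± 0.35), and Klrk1, which encodes the receptor NKG2D, at 71.6, 267 and 132 against 6.89, 8.52 and 1.52 (4.58 ± 0.70). Ncr1, a marker that T cells normally lack, was also higher, at 75.6, 280.0 and 141 against 0, 1.06 and 0 (6.83 ± 0.71). The NK marker list, which shares 5 genes with the cytotoxic list, summed to 0.0155, 0.037 and 0.055% in T143 and to 0.0025 to 0.00356% in WT, without overlap. The part of NK cells in the cytotoxic rise was not tested.

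Of 36 interferon-stimulated genes 6 passed as higher and 2 as lower, in all 22.2%, near the 23.8% of all genes tested. The lower count was 1 without T143 replicate 3, without WT replicate 2 or without both libraries with conflicting source names. The higher count was 3 without T143 replicate 2 and without both libraries with conflicting source names. The members named here were picked for their small p, and Oasl2 and Oas3 belong to the antiviral 2'-5'-oligoadenylate synthetase family. Oasl2 was at 557, 1024 and 756 in T143 and at 108, 74.5 and 108 in WT (2.97 ± 0.38, limma adjusted p = 0.000527), and Oas3 at 848, 1292 and 934 against 203, 234 and 407 (1.90 ± 0.28). Gbp3, a guanylate-binding protein, was lower, at 1075, 1204 and 1071 against 2228, 2374 and 2206 (-1.02 ± 0.14).

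**Figure D4:**
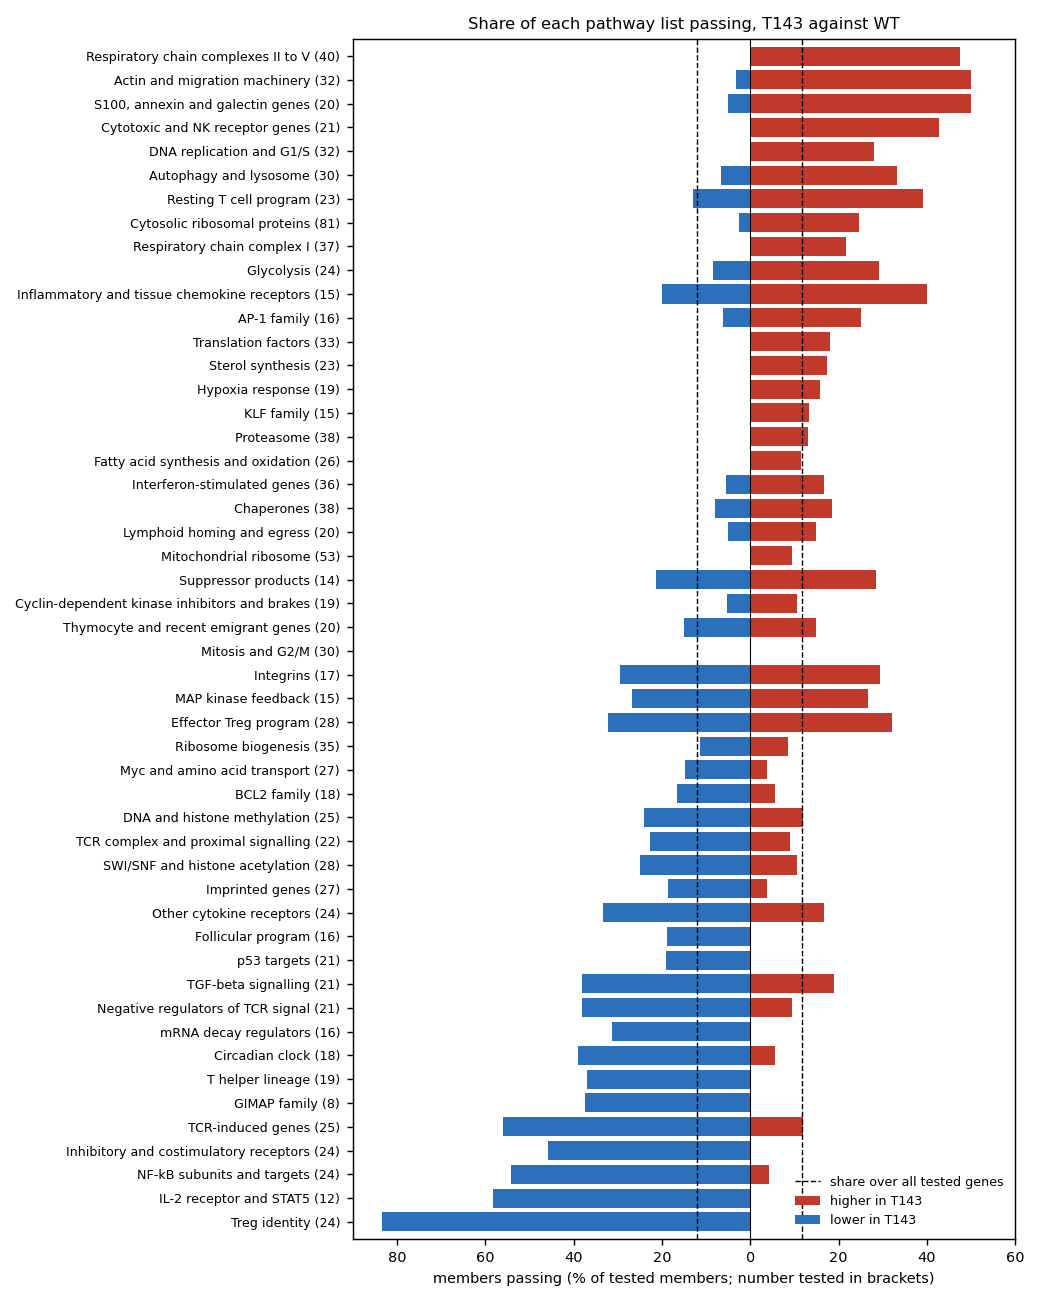
Share of the tested members of 50 pathway lists that passed as higher (red, right) or lower (blue, left) in T143, with the number of tested members in brackets; dashed lines mark the shares over all tested genes, 11.7% higher and 12.1% lower. The Treg identity list is lower for 20 of 24 members, and the 30 mitosis members hold no passing gene.

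Genes for cell division gave an unstable picture. Of 30 mitosis genes limma called 0, although 11 had an unadjusted p under 0.05 and all 30 had a higher mean in T143, with a median log2 change of 1.29. edgeR called 1 and DESeq2 8, and 8 passed in limma without T143 replicate 1 and 10 without both libraries with conflicting source names. Mki67, a marker of cycling cells, was at 1877, 6096 and 10485 in T143 and at 504, 4614 and 3536 in WT, and Top2a at 1781, 3101 and 4722 against 326, 2556 and 2432. WT replicate 1 was the lowest library for both genes. Of 32 DNA replication genes 9 passed as higher, against 11.7% of all genes. The count was only 3 without T143 replicate 2, T143 replicate 3 or WT replicate 1. It was 4 without WT replicate 2, and 6 without both libraries with conflicting source names. Mcm2, a subunit of the replicative helicase, was at 1777, 2539 and 2289.6 against 992, 1239.7 and 1419.7 (0.85 ± 0.18), and Pcna, the sliding clamp, at 995, 915 and 959 against 406, 495 and 617 (0.94 ± 0.19). Both rises passed in each fit that left out 1 library.

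Lysosomal and autophagy genes were higher in T143 for 10 of 30 members and lower for 2, against 11.7% and 12.1% of all genes. When single libraries were left out, 7 to 11 passed as higher. The lower count was 1 without T143 replicate 2, T143 replicate 3 or any WT library. Ctsd, the protease cathepsin D, was at 8973, 9671 and 10119 in T143 and at 5205, 2845 and 4732 in WT (1.22 ± 0.20, limma adjusted p = 0.00202). Lamp2, a lysosomal membrane protein, was at 1228, 1784 and 3136 against 499, 526 and 487 (1.91 ± 0.28), and Hexa, a subunit of hexosaminidase, at 1395, 1771 and 1786 against 974, 541 and 712 (1.18 ± 0.21). The highest T143 library, replicate 3, was 2.55-fold the lowest for Lamp2, against 1.13-fold for Ctsd and 1.28-fold for Hexa. Mcoln1, a lysosomal ion channel, was lower, at 478, 548 and 511 against 1155, 996 and 996 (-1.03 ± 0.15, limma adjusted p = 0.00132).

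Actin and migration genes passed as higher for 16 of 32 members and as lower for 1, against 11.7% and 12.1% of all genes. The higher count was 6 without both libraries with conflicting source names or with median centring, 9 without T143 replicate 1, and 8 without T143 replicate 3 or without WT replicate 2. Arpc1b and Arpc5, subunits of the branching complex Arp2/3, were at 7921, 6572 and 9480.4 against 3743, 2617 and 4034 (1.21 ± 0.19) and at 6514, 5781 and 6677 against 3923, 2807 and 3533 (0.90 ± 0.15). Cdc42, a small GTPase of cell polarity, was at 10317, 9085 and 9759 against 6219, 5314 and 6893 (0.67 ± 0.13). Rhoh, a GTPase of blood cells needed for TCR signals, was lower, at 3918, 3492 and 3147 against 8746, 4987 and 6624 (-0.92 ± 0.19). The S100, annexin and galectin list was higher for 10 of 20 members, 5 without WT replicate 2 and 8 without both libraries with conflicting source names. Anxa1, at 4420.0, 6992 and 34157 in T143 and 57.2, 75.6 and 92 in WT, and Lgals3, at 764, 1615 and 4098 against 60.6, 59.6 and 122, were highest in T143 replicate 3. Both genes are abundant in myeloid cells.

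In glycolysis, 7 of 24 genes passed as higher and 2 as lower, against 11.7% and 12.1% of all genes. The higher count was 4 without T143 replicate 1 or without both libraries with conflicting source names. Eno3, an enolase typical of muscle, was at 438, 456 and 374 in T143 and at 2123, 1078 and 1506 in WT (-1.84 ± 0.23, limma adjusted p = 0.000536), and Ldhb, a lactate dehydrogenase chain, at 55.7, 48.4 and 64.4 against 291, 259.9 and 266 (-2.26 ± 0.38). Hk3, a hexokinase typical of myeloid cells, was at 468, 1058 and 2669.6 against 1.38, 56.4 and 22.8 and was highest in T143 replicate 3. Pfkfb4, a regulator of glycolytic flux, was at 533, 753 and 1623 against 163, 203 and 198 (2.21 ± 0.35).

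Genes of the respiratory chain and the ribosome have short transcripts and were partly higher in T143. Of 40 genes of complexes II to V, 19 passed as higher, and of 37 genes of complex I, 8. The medians were 0.68 and 0.59 on the log2 scale. Of 81 cytosolic ribosomal protein genes, 20 passed as higher and 2 as lower (median 0.51). Over all genes tested, 11.7% passed as higher and 12.1% as lower. Uqcrfs1, the Rieske protein of complex III, was at 1893, 1626 and 1618 in T143 and at 1054, 721 and 1059 in WT (0.88 ± 0.18, limma adjusted p = 0.00563). Atp5g3, a rotor subunit of ATP synthase, was at 3534, 2912 and 2980.2 against 2061, 1137 and 1911 (0.92 ± 0.21), and Rplp2, a ribosomal stalk protein, at 6020.0, 3879 and 3308 against 1563, 985 and 1973 (1.56 ± 0.27). Ribosomal protein genes have many near-identical copies in the genome, so their counts are uncertain. Over all genes with a mean of at least 50, the 2173 genes with the shortest transcripts (63 to 1690 bases) were 0.34, 0.23 and 0.21 above the WT mean in T143 replicates 1, 2 and 3 on the log2 scale. In WT the same genes stood at 0.16, -0.25 and 0.10. They included 382 higher and 191 lower genes, and the 2172 genes with the longest transcripts 240 higher and 424 lower. The median transcript was 851 bases in complexes II to V, 758 in complex I and 780 in the ribosomal list. With the length trend removed, 12, 4 and 17 genes of these lists passed as higher, and 5 ribosomal genes as lower. With median centring the higher counts were 10, 3 and 11, and without both libraries with conflicting source names 12, 5 and 16. The calls also moved with single libraries. In complexes II to V the higher count was 10, 8 and 10 without T143 replicates 1, 2 and 3, and 24, 11 and 12 without WT replicates 1, 2 and 3. In complex I it was 2, 2 and 3 without T143 replicates 1, 2 and 3, and 14, 3 and 5 without WT replicates 1, 2 and 3. The ribosomal higher count was 6 and 8 without T143 replicates 1 and 2, and 9 and 10 without WT replicates 2 and 3. The ribosomal lower count was 0 without T143 replicate 1 or WT replicate 2, and 1 without T143 replicate 2, WT replicate 1 or WT replicate 3.

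**Figure D5:**
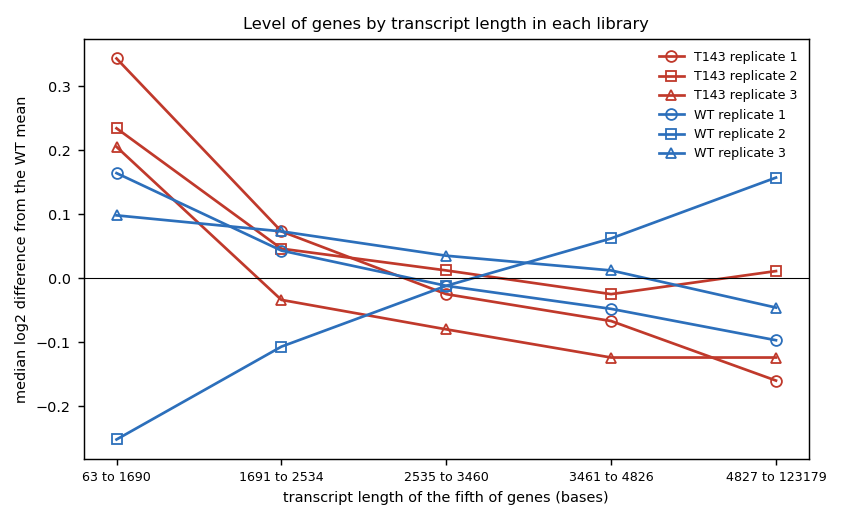
Median log2 difference of each library from the mean of the WT libraries, for 5 bins of genes ordered by transcript length; lines join the values of 1 library, red for T143 and blue for WT. The 3 T143 libraries lie at 0.21 to 0.34 in the shortest bin, and WT replicate 2 runs the other way, from -0.25 in the shortest bin to 0.16 in the longest.

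Genes for DNA and histone methylation were lower for 6 of 25 members and higher for 3, against 12.1% and 11.7% of all genes. Their median log2 change was -0.21. Tet2, an enzyme that oxidises methylcytosine, was at 748, 1069 and 1301 in T143 and at 1855, 3235 and 2151 in WT (-1.21 ± 0.24, limma adjusted p = 0.00496). Dnmt3a, a DNA methyltransferase, was at 2434, 2596 and 2186 against 3105, 4354 and 3686 (-0.62 ± 0.15). Kmt2d, a histone methyltransferase of enhancers, was at 8555, 13672 and 9952 against 17851, 26376 and 20355 (-1.01 ± 0.19), and Kdm6b, a histone demethylase, at 2273, 3139.5 and 2864 against 4304, 5130.1 and 4908 (-0.80 ± 0.15). Kdm6a, its X-linked relative that escapes X inactivation, was higher, at 2726, 2765 and 2538 against 1624, 1817 and 1677 (0.65 ± 0.12), and sex differs between the groups. Of the SWI/SNF and acetylation list, 7 of 28 members were lower and 3 higher. The lower count was 4 without WT replicate 3 or without both libraries with conflicting source names. The higher count was 1 without T143 replicate 1, T143 replicate 2 or WT replicate 1, and 1 without both libraries with conflicting source names. Hdac7, a deacetylase of T cells, showed the clearest fall, from 7871, 9126 and 9212 to 2701, 3371 and 2178 (-1.69 ± 0.16, limma adjusted p = 0.000121). Imprinted genes are expressed from 1 parental copy. The values here are per gene and do not tell which parental copy or transcript form they come from. Of 27 tested, 5 passed as lower and 1 as higher, against 12.1% and 11.7% of all genes, and 3 as lower without both libraries with conflicting source names. The member that rose, Mest, was low, at 13.9, 10.2 and 73 against 4.13, 0 and 0, and its call was lost without T143 replicate 3, WT replicate 2 or WT replicate 3. Inpp5f, an inositol phosphatase, was at 1152, 1106 and 964 against 3709, 3835 and 2976 (-1.70 ± 0.15), and Igf2r, the receptor that clears IGF2, at 4253, 3693 and 2886 against 7007, 6252 and 6476 (-0.88 ± 0.15).

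Clock genes were lower in T143 for 7 of 18 members and higher for 1, against 12.1% and 11.7% of all genes. Their median log2 change was -0.61. The lower count was 4 without both libraries with conflicting source names and 5 to 7 when single libraries were left out. The clock runs on the activators CLOCK and BMAL1 (gene Arntl), which bind E-box sequences of their own repressors, the PER and CRY proteins. Promoters of 2 members that fell are shown, again as the 250 bases before the RefSeq start with the most matches in GRCm38.p6. The E-box CACGTG is in capitals. Ciart, at chr3:95882229-95882478 on the minus strand, encodes a repressor of BMAL1, and Per1, at chr11:69098699-69098948 on the plus strand, a core repressor.
Ciart: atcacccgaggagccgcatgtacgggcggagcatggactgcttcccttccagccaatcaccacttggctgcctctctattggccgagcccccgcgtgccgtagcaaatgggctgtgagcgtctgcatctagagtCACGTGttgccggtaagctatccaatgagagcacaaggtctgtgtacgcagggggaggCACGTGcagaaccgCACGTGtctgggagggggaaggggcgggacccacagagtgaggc
Per1: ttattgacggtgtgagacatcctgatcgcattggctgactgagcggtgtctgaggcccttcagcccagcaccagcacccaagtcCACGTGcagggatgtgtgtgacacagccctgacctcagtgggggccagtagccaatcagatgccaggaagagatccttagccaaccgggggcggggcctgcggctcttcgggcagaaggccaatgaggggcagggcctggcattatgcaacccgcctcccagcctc
The E-boxes of Ciart begin 116, 58 and 44 bases before the start and that of Per1 begins 166 bases before it. In the same 300-base window the motif was found for 5 of the 16 clock genes with a window (Bhlhe41, Ciart, Cry1, Per1 and Tef), and in 8.09% of all genes with one. The list was written as clock genes, so this share does not bear on T143 against WT. Per1 was at 742, 879 and 842 in T143 and at 1577, 1840.3 and 1854 in WT (-1.10 ± 0.16, limma adjusted p = 0.00105). Ciart was at 7.96, 8.91 and 12.4 against 113, 35.1 and 30.4 (-2.26 ± 0.70), near the lowest levels that these depths resolve, and its call was lost when any T143 or WT library was left out. The activator gene Arntl was at 472, 471 and 441 against 858, 1149 and 821 (-1.01 ± 0.17), and Nr1d1, the repressor REV-ERB-alpha, at 47.8, 52.2 and 34.6 against 146, 115 and 146 (-1.59 ± 0.36). Dbp, an output of the loop, and Per2, another core repressor, had lower values in every T143 library than in any WT library. Neither passed (limma adjusted p = 0.0565 and 0.436), and 20.7% of all genes tested were lower without overlap. Csnk1e, a kinase that marks PER proteins for decay, was higher, at 993, 909 and 774 against 521, 472 and 527 (0.81 ± 0.18). The labels state no hour of collection, and its part in these values was not tested.

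A group of 16 genes was at 0 reads in all 3 WT libraries and at 100 or more in all 3 T143 libraries. Chil3, a chitinase-like protein of myeloid cells, reached 3934, 8356 and 28489 in T143 and was at least 5407.6-fold higher than the WT floor of 3 reads per library. Mmp8, the neutrophil collagenase, reached 1134, 2021 and 6845, and Retnlg, a resistin-like protein, 1604, 2717 and 9470.5. All 3 were highest in T143 replicate 3. In the other direction 3 genes met the same rule, Eif2s3y, Kdm5d and Uty, and all are Y-linked. The granule and calprotectin genes of neutrophils were near 0 in WT rather than at it. S100a8 was at 19716, 31389 and 134751 in T143 and 0, 7.45 and 0 in WT, and Ngp at 15867, 27215 and 85765 against 1.38, 0 and 1.52. In all, 19 of 20 neutrophil markers and 18 of 18 monocyte markers passed as higher, against 11.7% of all genes. The monocyte count was 10 without T143 replicate 2 or without T143 replicate 3. The remaining neutrophil marker, Mpo, was at 1528, 4477 and 15299.8 against 0, 701 and 225 and had a limma adjusted p of 0.123.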

How the data were processed

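Poly(A) RNA of sorted T cells was read in 8 libraries with a stranded kit, per the labels. Each deposited value is a read count of a gene scaled by a constant of its library (unit: signal). Whole reads were recovered for 100% of values within 0.01. Tools listed without roles in the submitters' processing notes are STAR 2.5.2b, HOMER 4.8, CASAVA 1.8.2 and edgeR, with build mm10. No source used here says how strand or multi-mapping reads were counted, so overlapping, antisense and near-identical genes are uncertain.

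Of 24453 genes, 15547 had a value of at least 1 in 2 libraries. limma 3.58.1 (R 4.3.3, trended and robust empirical Bayes) was fitted to log2(value + 1) of all 8 libraries, with the 2 T138 libraries used only for the spread. The contrast was T143 minus WT, two-sided, at a Benjamini-Hochberg adjusted p under 0.05. Changes (± SE, n = 3 per group) are on that log2 scale, which understates changes of low genes. The procedure was tested on simulated data.

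edgeR 4.0.16 and DESeq2 1.42.0 on recovered reads, other pseudocounts, filters and scalings, a replicate block and leaving out each library were tried as alternatives. Removal of a trend with transcript length (GENCODE lengths, 24221 genes matched) was chosen after seeing the data.

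The members and gene lists (50 pathway and 12 marker lists) were chosen with earlier results of these data known, and no list was tested as a set. Named genes are the 12 largest falls and rises, without overlap between groups, from a WT mean above the median, the 8 largest rises from below it, up to 4 passing members per list with the smallest p, the smallest p in the less frequent direction, 3 members of each marker list, on and off genes, and 8 fixed genes. Some further list members were named after their values were seen. Not every gene that met the rule is reported here. Promoter sequences are from RefSeq (GRCm38.p6). SEs come from the spread between libraries, and floors of 3 reads cover counting error only.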

Additional observations from a re-analysis of the deposited data

How the results depend on the processing

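Over all alternatives, no gene given with a call above changed direction. Many of these genes were named for having no overlap between groups, so leaving out a library could not reverse them. Of the genes followed through the alternatives, 53 lost their call without both libraries with conflicting source names. The same happened to 49 without T143 replicate 2 and to 40 without WT replicate 3. The number of genes passing was 3698 with limma on all libraries, 3263 with edgeR, 4219 with DESeq2 and 3566 with only the T143 and WT libraries. It ranged from 2426 to 3558 when 1 library was left out, with 1042 to 1735 genes higher and 1342 to 1824 lower. Without both libraries with conflicting source names 1234 genes passed as lower. The share of passing genes that were higher was 49.2%, 39.4% with median centring and 55.2% with the length trend removed. Replicate numbers did not pair the libraries: deviations from the group means correlated at 0.024, 0.055 and 0.022 for the numbers 1, 2 and 3, each number with itself best. With the number as a replicate block, 3940 genes passed, 2000 higher and 1940 lower, and 20 of 30 mitosis genes passed as higher. The share passing differed with level: 5.8% of the 3110 genes with the lowest levels passed and 36.5% of the 3110 with the highest. The cause of these differences was not tested.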

Other observations

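Passing genes were spread over all chromosomes, with some differences in share. On chromosome 6, 14.8% of 797 tested genes passed as higher and 10.4% as lower, and on chromosome 17, 10.9% of 828 passed as higher and 16.9% as lower. On the X chromosome the shares were 11.5% and 12.1% of 529 genes, close to the 11.7% and 12.1% over all genes tested. Chromosome Y had 4 genes tested, all lower in T143, where sex differs between the groups. Among X-linked genes known to escape X inactivation, Ddx3x was at 9073, 9861 and 9061 in T143 and at 5812, 5908 and 5100.3 in WT (0.74 ± 0.12, limma adjusted p = 0.00193). Kdm5c was at 4585, 5297 and 4276 against 3265, 4319.6 and 3796 and did not pass (limma adjusted p = 0.134).

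GIMAP genes, small GTPases that support lymphocyte survival, passed as lower for 3 of 8 members, against 12.1% of all genes. The count was 2 when T143 replicate 2 or 3, or WT replicate 1 or 3, was left out. Gimap3 was at 9632, 8398 and 7869 in T143 and at 16981, 17352 and 16348 in WT (-0.97 ± 0.12, limma adjusted p = 0.00052), and Gimap8 at 6143, 6383 and 5084 against 10051, 13508 and 9964 (-0.92 ± 0.15). In the BCL2 family, which decides cell survival, the survival gene Bcl2l1 was at 681, 668 and 675 against 1411, 1003 and 1613 (-0.96 ± 0.18). Ahr, a receptor for environmental ligands, fell from 409.8, 719 and 515 to 129, 221 and 259.9 (-1.45 ± 0.31).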
